A study of Mus musculus with 10 samples.

Results

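The 10 genes Pecam1, Emcn, Cdh5, Egfl7, Flt1, Kdr, Tie1, Tek, Plvap and Esam are markers of vascular endothelium, and their signals were followed here in sorted epithelial cells of the thymic medulla. They were chosen by name. Every probe set with 1 gene symbol that named one of them was taken, which gave 17 probe sets of 34945 such probe sets on the array. Of the 10 genes, 9 had a probe set above the filter on low signal and were tested, among 14086 genes tested in all. Tie1 was below the filter on all 10 arrays.

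The arrays were Affymetrix expression arrays hybridised with biotin-labelled RNA of mature medullary thymic epithelial cells (mTECs) from the thymus of mice aged 3 weeks. The cells were gated as CD45-, EpCAM+ and CD80hi, so leukocytes and cells without the epithelial adhesion molecule EpCAM were to be left out. There were 5 wild type (WT) arrays, called WT 1 to WT 5 here, and 5 arrays of Fezf2 KO cells, called KO 6 to KO 10, all on the C57BL/6 background. Fezf2 is a zinc finger transcription factor that mTECs need for part of the tissue antigens they display, and the comparison asks which genes depend on it. The labels do not say in which cells Fezf2 was deleted, which part of the gene was removed. They also do not say that the arrays of a group came from different mice, and the p-values cover only array-to-array variation, which could be technical in origin.

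Endothelial cells line blood vessels and are held together by junctions of their own. Receptors of secreted ligands guide them: the receptors of vascular endothelial growth factor (VEGF), Kdr and Flt1, and the Tie receptors, Tek and Tie1, with the angiopoietins as ligands of Tek. Thymic vessels carry progenitors into the organ and mature T cells out of it. In bulk RNA, fewer cells of a type and less RNA per cell cannot be told apart.

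Values are the deposited linear signals, given as mean ± SD over the 5 arrays of a group. Changes are KO minus WT on the log2(signal + 16) scale (low signals give changes that are too small on it), with the standard error (SE) and the adjusted p of limma after Benjamini-Hochberg adjustment over all genes tested. A change was called at an adjusted p under 0.05. Signals of different probe sets are not compared with each other, since each probe set has its own response.

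The labels were checked first. Fezf2 had a signal of 5476 ± 350 in WT and 15.04 ± 2.77 in KO cells, a change of -7.47 (SE 0.07, adjusted p = 5.3e-15). Epcam, the epithelial molecule of the gate, stood at 7344 ± 232 and 7695 ± 261 (adjusted p = 0.25). Ptprc, which encodes CD45, read 210 to 298 on the WT and 155 to 278 on the KO arrays (adjusted p = 0.33). The 18S rRNA signal was 3445 on WT 1 and 3762 on KO 6, and between 765 and 1774 on the remaining 8. The mean of the poly-A spike controls was also highest on these arrays. It was 537 on WT 1 and 759 on KO 6, against 115 to 422 on the rest. The bearing of these readings on the endothelial signals was not tested. Xist read 21.1 to 30.0 on WT 2, KO 6 and KO 8 and 5304 to 6100 on the rest. Each group thus held arrays with low and with high Xist, so its arrays were not all from 1 RNA source. How many animals they came from is not given.

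Promoter sequences are shown for 3 of the genes, from RefSeq on build GRCm38.p6, where 6 of the 10 genes had an entry. The windows hold the 250 bases before the start of the gene. Kdr and Flt1 are shown because these receptors of one ligand family went opposite ways, and Emcn because it is found in few other cell types. Capitals mark the letters GGAA on either strand (TTCC on the strand shown), the core bound by ETS factors, a family that includes regulators of endothelial genes.
Kdr: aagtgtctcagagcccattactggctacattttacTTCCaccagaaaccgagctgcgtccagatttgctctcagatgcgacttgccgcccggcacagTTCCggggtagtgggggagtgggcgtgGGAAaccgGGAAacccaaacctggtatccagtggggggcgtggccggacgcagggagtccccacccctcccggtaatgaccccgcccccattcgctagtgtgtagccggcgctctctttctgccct
Flt1: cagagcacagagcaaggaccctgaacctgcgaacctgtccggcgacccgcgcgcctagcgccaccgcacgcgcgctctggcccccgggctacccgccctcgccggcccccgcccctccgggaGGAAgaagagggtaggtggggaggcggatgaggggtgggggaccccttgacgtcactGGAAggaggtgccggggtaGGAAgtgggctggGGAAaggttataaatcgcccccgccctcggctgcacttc
Emcn: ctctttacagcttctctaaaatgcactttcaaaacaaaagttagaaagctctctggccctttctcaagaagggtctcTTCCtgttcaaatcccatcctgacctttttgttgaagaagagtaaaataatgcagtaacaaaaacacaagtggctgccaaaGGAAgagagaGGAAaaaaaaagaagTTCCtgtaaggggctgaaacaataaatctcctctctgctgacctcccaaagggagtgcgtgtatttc
The windows lie at chr5:75978456-75978705 on the minus strand for Kdr, at chr5:147726012-147726261 on the minus strand for Flt1, and at chr3:137340828-137341077 on the plus strand for Emcn. Each of these windows held the GGAA core 4 times. The core was in 93.4% of 32851 promoter windows of this length, so its presence sets none of these genes apart. The longer string AGGAAG, which contains the core, occurred 2 times for Flt1, 2 times for Emcn and not at all for Kdr, on both strands together, and in 29.5% of all windows. The letters GATAAG, read by GATA factors, were in none of the 8 windows of the 6 genes and in 6.55% of all windows.

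Most of the endothelial genes had more signal in KO than in WT cells, and Flt1 had less. Of the 9 genes tested, 5 rose (Pecam1, Emcn, Cdh5, Egfl7 and Kdr), 1 fell (Flt1) and 3 did not pass the threshold (Tek, Plvap and Esam). Over all genes tested, 13% were called higher and 16.2% lower. The median change of the 9 genes was 0.60 and that of all 14086 genes -0.03. Pecam1 and Emcn lay above the filter on all KO arrays and on WT 1 alone, so they entered the test through the group in which they were high. Without any filter, all 10 genes could be tested, with 5 higher and 1 lower and a median of 0.49, against 9.89% higher and 13% lower of all 18193 genes. The KO signals lay entirely above the WT signals for 1 of the 9 genes, Egfl7, and entirely below them for 1, Flt1, while 10.1% of all genes had every KO array above and 12% every KO array below the WT arrays.

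**Figure D1:**
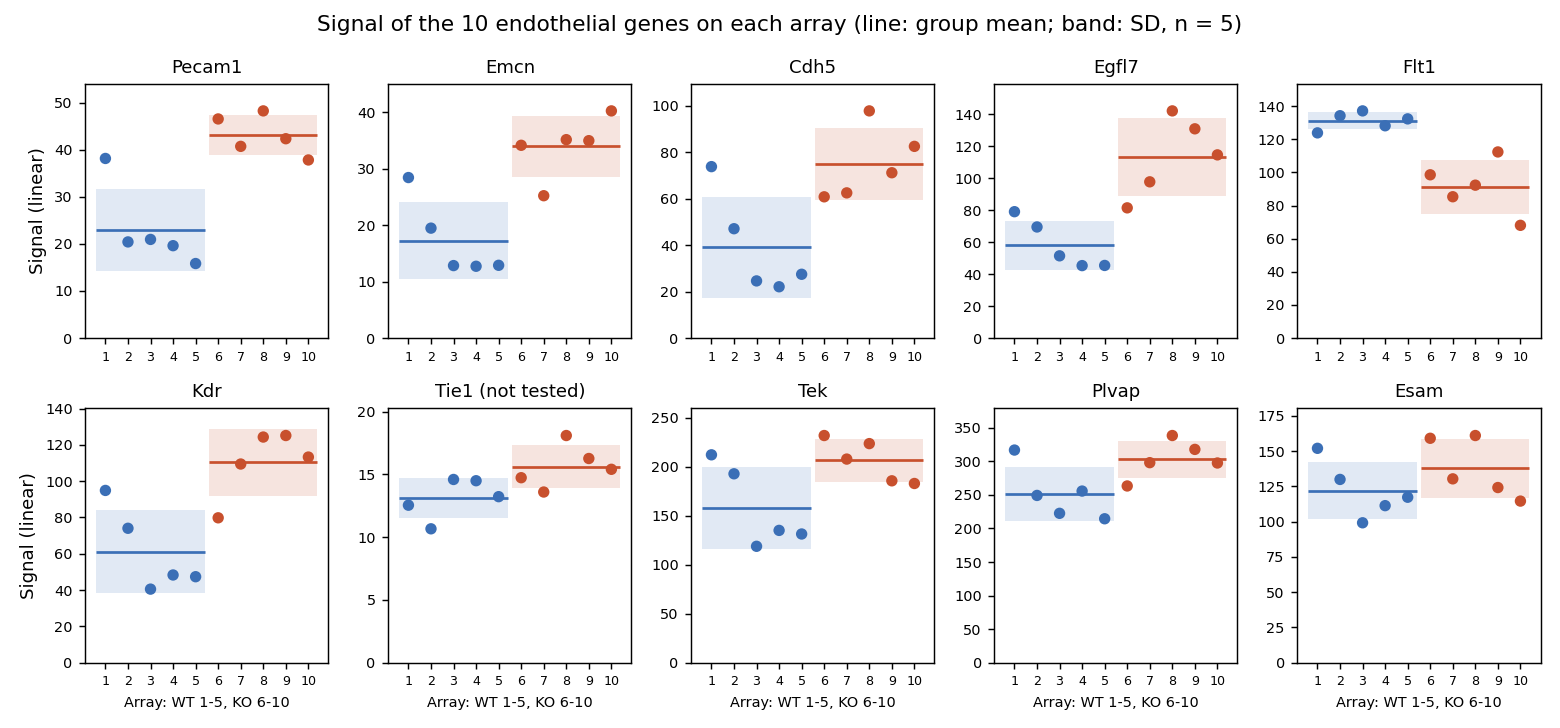
Linear signal of the 10 endothelial genes on each of the 10 arrays (blue, WT 1 to WT 5; red, KO 6 to KO 10), with the group mean as a line and the SD as a band (n = 5 each); each panel has its own axis from 0, and Tie1 was below the filter. For Kdr, Cdh5, Emcn and Tek, WT 1 and WT 2 stand above WT 3 to WT 5.

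The VEGF receptors differed in direction. Kdr, the main signalling receptor for VEGF-A in endothelium, had signals of 94.9, 74.0, 40.5, 48.3 and 47.3 on WT 1 to WT 5 and of 79.8, 109, 124, 125 and 113 on KO 6 to KO 10. WT 1 reached above KO 6, and WT 3 to WT 5 lay far below every KO array. The mean was 61.0 ± 22.8 in WT and 110.4 ± 18.4 in KO cells, 1.81 times as high, and the change was 0.75 (SE 0.18, adjusted p = 0.00733). For Kdr, p = 0.0159 in an exact permutation test (two-sided, as for all genes here).

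Flt1 encodes the VEGF receptor that binds its ligands tightly and signals weakly, and also a soluble form that holds ligand away from Kdr. Its probe set 1451756_at read 124, 134, 137, 128 and 132 on WT 1 to WT 5 and 98.6, 85.3, 92.3, 112 and 68.1 on KO 6 to KO 10. The groups did not overlap, and WT 1 was here the lowest of the WT arrays. The mean fell from 131.2 ± 5.22 to 91.3 ± 16.4, with a change of -0.47 (SE 0.10, adjusted p = 0.00408). Its exact permutation p was 0.00794, which no comparison of 5 with 5 arrays can go below. The 4 probe sets of Flt1 did not read alike. In the fit over all 23572 probe sets kept, 1440926_at and 1454037_a_at also fell, with changes of -0.29 (adjusted p = 0.0239) and -0.24 (adjusted p = 0.0147). The fourth, 1419300_at, had a change of 0.02 (adjusted p = 0.94), and its signals of 66.2, 43.8, 32.1, 35.1 and 38.9 on WT 1 to WT 5 were highest on WT 1, as for Kdr. Which transcript form each probe set reads was not tested.

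Of 7 VEGF ligands and co-receptors, all tested, 2 rose (28.6%), 2 fell (28.6%) and 3 did not pass. Over all genes tested, 13% were called higher and 16.2% lower. The median was -0.25. Nrp1, neuropilin 1, a co-receptor that presents VEGF-A to Kdr, rose from 139.6 ± 23.4 to 304.4 ± 42.2 (change 1.04, SE 0.11, adjusted p = 3.6e-05), and all 4 of its probe sets rose, by 0.37 to 1.09. Its signals were 117 to 179 on the WT arrays and 251 to 354 on the KO arrays, without overlap. Vegfa, the main ligand of Kdr and Flt1, fell from 155.3 ± 32.9 to 87.7 ± 25.0 (change -0.73, SE 0.16, adjusted p = 0.00460). The groups overlapped for Vegfa, since KO 10 at 130 lay above WT 1 at 125. Vegfc, a ligand of lymphatic and blood vessels, fell from 73.7 ± 11.4 to 45.3 ± 6.19 (change -0.55, adjusted p = 0.00137), and its 3 probe sets all fell, by 0.22 to 0.55. Vegfd, a related ligand, rose from 21.7 ± 3.33 to 32.5 ± 2.66 (change 0.37, adjusted p = 0.00153). Like Pecam1 and Emcn, Vegfd lay above the filter on all KO arrays and on WT 1 alone, so it entered the test through the group in which it was high. Its WT signals of 18.7 to 27.3 were near the 40th percentile of those arrays (21.8 to 22.1). With no filter, Vegfd was still called higher. Pgf, Vegfb and Nrp2 had changes of -0.31, -0.25 and -0.12 (adjusted p = 0.072, 0.12 and 0.53). The change of Pgf passed once a block set WT 1 and KO 6 apart (-0.31, adjusted p = 0.0384) or the pair was dropped (-0.37, adjusted p = 0.0296). It also passed without WT 1 (-0.39, adjusted p = 0.0198) and when arrays were weighted (-0.31, adjusted p = 0.0233), and that of Vegfb without KO 10 (-0.34, adjusted p = 0.0269).

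The Tie receptors had smaller differences. Tek, the receptor of the angiopoietins, had signals of 212, 193, 119, 135 and 131 on WT 1 to WT 5 and of 232, 208, 224, 186 and 183 on KO 6 to KO 10. WT 1 and WT 2 lay among the KO arrays, and WT 3 to WT 5 lay below all of them. The change of Tek was 0.38 (SE 0.14, adjusted p = 0.064; exact permutation p = 0.0714). It passed without WT 1 (0.49, adjusted p = 0.0129) and without WT 2 (0.45, adjusted p = 0.0380). With WT 1 and KO 6 as a block the change stayed at 0.38 and passed (adjusted p = 0.0236). Tek also passed with that pair left out (0.45, adjusted p = 0.0203) and with array weights (0.48, adjusted p = 0.00222). Tie1, the partner receptor of Tek, read 10.7 to 14.6 on the WT and 13.6 to 18.1 on the KO arrays, below the 40th percentile of every array, and with no filter its change was 0.12 (SE 0.05, adjusted p = 0.0851). Detection calls were not used here, so Tie1 cannot be called absent.

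Of 5 angiopoietin ligands and regulators, 1 rose (20%), none fell and 4 did not pass in limma, with a median of -0.09. At an unadjusted p under 0.05, 1 was higher and 0 lower. The shares over all genes tested were 13% higher and 16.2% lower. Angpt1, the activating ligand of Tek, rose from 62.6 ± 39.5 to 125.5 ± 6.48 (change 0.98, SE 0.26, adjusted p = 0.0123). Its WT signals were 34.5, 26.3, 126, 71.0 and 55.1 on WT 1 to WT 5 and its KO signals 116 to 132. WT 3 lay among the KO arrays, and WT 1 and WT 2, the highest WT arrays for Tek, were the lowest for Angpt1. Angpt2, the ligand that can oppose Angpt1, had a change of -0.19 (adjusted p = 0.35).

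Among the genes of endothelial junctions and adhesion, Cdh5, VE-cadherin of the adherens junction, read 73.8, 47.1, 24.6, 22.1 and 27.4 on WT 1 to WT 5 and 60.8, 62.5, 97.8, 71.2 and 82.5 on KO 6 to KO 10. WT 1 lay among the KO arrays, WT 2 between the groups, and WT 3 to WT 5 were low. The mean rose from 39.0 ± 21.8 to 75.0 ± 15.4 (change 0.79, SE 0.21, adjusted p = 0.0151; exact permutation p = 0.0317). A second probe set of Cdh5, 1422047_at, read 7.97 to 12.9 on all arrays, below the filter, with a change of 0.03 when no filter was set.

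Pecam1 encodes CD31, an adhesion molecule of endothelium, platelets and some leukocytes. It read 38.1, 20.4, 20.9, 19.6 and 15.8 on WT 1 to WT 5 and 46.5, 40.7, 48.2, 42.3 and 37.8 on KO 6 to KO 10. WT 1 alone reached the KO range, just above KO 10. The change was 0.62 (SE 0.12, adjusted p = 0.00214; exact permutation p = 0.0159). Esam, an adhesion molecule of endothelial tight junctions and platelets, read 152, 130, 99.1, 111 and 117 on WT 1 to WT 5 and 159, 130, 161, 124 and 115 on KO 6 to KO 10. The groups overlapped widely, and the change of 0.16 did not pass (SE 0.12, adjusted p = 0.34; exact permutation p = 0.230).

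Among the surface and secreted proteins, Emcn, the sialomucin endomucin of capillaries and veins, read 28.4, 19.5, 12.8, 12.7 and 12.9 on WT 1 to WT 5 and 34.2, 25.2, 35.2, 35.0 and 40.3 on KO 6 to KO 10. WT 1 lay above KO 7 and below the other KO arrays, and WT 3 to WT 5 were the lowest. The change was 0.60 (SE 0.12, adjusted p = 0.00323; exact permutation p = 0.0159). Plvap, which forms the diaphragms of fenestrated capillaries and caveolae, read 317, 249, 223, 256 and 214 on WT 1 to WT 5 and 263, 298, 339, 318 and 298 on KO 6 to KO 10. WT 1 lay near the top of the KO range and the other WT arrays below it. The change of 0.26 did not pass (SE 0.10, adjusted p = 0.073; exact permutation p = 0.0635). It passed without WT 1 (0.34, adjusted p = 0.00974) and without KO 6 (0.31, adjusted p = 0.0387), with WT 1 and KO 6 both left out (0.39, adjusted p = 0.00241) and with array weights (0.33, adjusted p = 0.00327).

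Egfl7, a protein that endothelial cells secrete into their matrix, rose as well. Its probe set 1451428_x_at read 79.1, 69.5, 51.4, 45.3 and 45.4 on WT 1 to WT 5 and 81.5, 97.8, 142, 131 and 115 on KO 6 to KO 10. The groups did not overlap, although WT 1 lay close to KO 6. The change was 0.81 (SE 0.16, adjusted p = 0.00216; exact permutation p = 0.00794). The suffix _x_at of this probe set marks probes that may match other transcripts, and 1435823_x_at of Egfl7 carries it too. The remaining probe sets of Egfl7 and the single ones of Pecam1 and Emcn carry _a_at, which marks sequence shared by transcripts of the same gene. The 3 other probe sets of Egfl7 gave smaller changes, of 0.31 (adjusted p = 0.0356), 0.39 (adjusted p = 0.0213) and 0.38 (adjusted p = 0.12). On each of these 3 the WT and KO signals overlapped.

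Counted by probe set, 7 of the 15 kept probe sets of these genes rose and 3 fell, against 12% higher and 12.7% lower of all 23572 probe sets. The probe sets that rose belonged to Pecam1, Emcn, Cdh5, Egfl7 (3) and Kdr, and those that fell all to Flt1. Probe sets of 1 gene share its RNA and are not replicates.

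**Figure D2:**
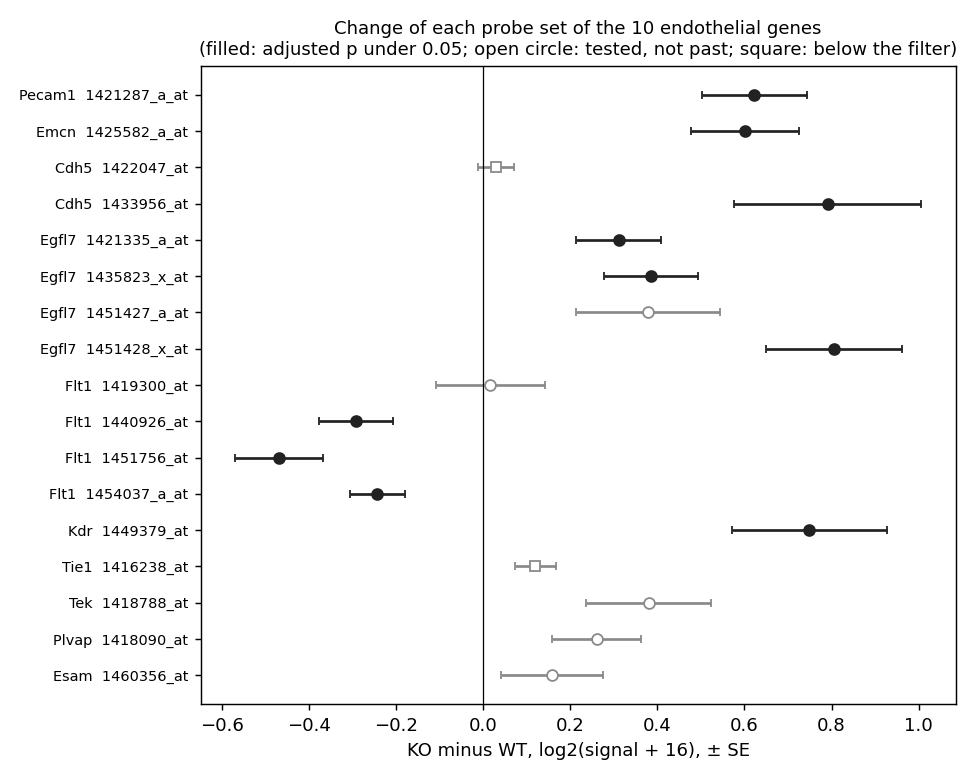
Change of each of the 17 probe sets, KO minus WT on the log2(signal + 16) scale, with its SE; filled points passed an adjusted p of 0.05, open circles did not, and squares were below the filter and are from the fit without one. All called changes are above 0 except the 3 of Flt1.

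A feature shared by most of these genes was the order of the WT arrays. WT 1 was the highest WT array for 8 of the 9 tested genes, the exception being Flt1. Both WT 1 and WT 2 lay above WT 3, WT 4 and WT 5 for 6 of the 9 genes, against 2421 of all 14086 genes (17.2%). This order was seen in the data and is given as a description. The summed signal of the 9 genes was 1119, 937, 728, 778 and 744 on WT 1 to WT 5 and 1052 to 1263 on the KO arrays. A sum is carried by the probe sets with the highest signal, and Plvap, Tek, Flt1 and Esam gave 77% of this one in WT. The sum of the 5 genes that rose was 314, 230, 150, 148 and 149 on WT 1 to WT 5 and 303 to 448 on the KO arrays. These 5 genes were picked by their calls on the same arrays, so the higher KO level of their sum follows from that choice. In both sums WT 1 lay within the KO range, and WT 3 to WT 5 had the lowest values. The summed signal of 7 thymocyte genes took a like order in WT, 847, 845, 653, 602 and 642, but was 438 on KO 6 and 776 to 947 on the other KO arrays. None of the 7 thymocyte genes was called in limma (0 at an unadjusted p under 0.05), against 13% higher and 16.2% lower of all genes tested. Why WT 1 and WT 2 stood apart for the endothelial genes was not tested. Without WT 1, 7 of the 9 genes rose and the median was 0.71. The shares of 13% and 16.2% belong to the fit with all arrays. The number of all genes called higher ran from 1160 to 2421 across 24 alternatives to that fit.

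**Figure D3:**
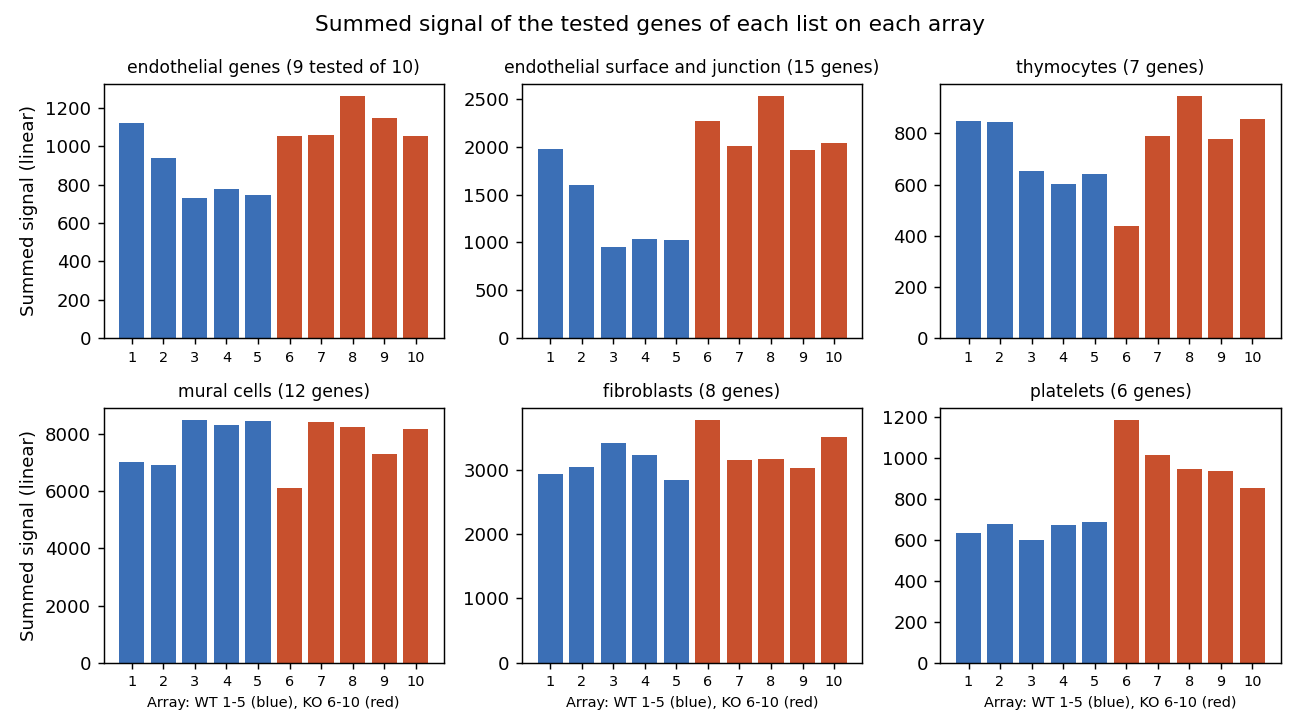
Summed linear signal of the tested genes of each list on each array (blue, WT; red, KO; axes from 0). The sums of the endothelial genes and of the list of endothelial surface and junction genes are high on WT 1 and WT 2 and low on WT 3 to WT 5, while the sum of the mural cell genes is lowest on KO 6.

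Deviations from the group means ran together for most of the genes. Over the 10 arrays, the Pearson correlation of each gene's deviations with the mean deviation of the other 8 genes lay between 0.68 for Esam and 0.93 for Cdh5, and was -0.09 for Flt1. The arrays farthest from the median were WT 1 and KO 8, and without both, over 8 arrays, the correlations were 0.15 for Pecam1, 0.24 for Esam, 0.43 for Plvap, 0.06 for Flt1 and 0.59 to 0.76 for the other 5 genes. The median over the 36 pairs of genes was 0.67 with all arrays and 0.18 without those arrays. Within an array, all genes are read from the same RNA, and these values are descriptions with no test.

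The genes outside the set whose deviations were most like the mean of the 9 genes were Asah2 (Pearson correlation 0.96 over 10 arrays), Cavin2 (0.95), Aqp1 (0.95), Hes5 (0.95) and Cd93 (0.95). Without WT 1 and KO 8 these were 0.85, 0.89, 0.89, 0.95 and 0.94. Aqp1, a water channel of capillaries and other tissues, rose from 370.9 ± 107 to 613.8 ± 32.4 (change 0.74, SE 0.15, adjusted p = 0.00234). Cavin2, a coat protein of caveolae, rose from 74.7 ± 51.9 to 159.4 ± 35.4 (change 1.10, adjusted p = 0.0160). Asah2, a ceramidase, and Hes5, a Notch target, had changes of -0.17 (adjusted p = 0.38) and 0.05 (adjusted p = 0.57).

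Other genes of endothelium, from lists of 50 genes of which 44 were tested, gave 17 higher (38.6%), 3 lower (6.82%) and 24 not past the threshold, with a median of 0.26. Over all genes tested these shares were 13% and 16.2%, and each list below is to be read beside them. The rise was most frequent among surface and junction genes, of which 9 of 15 rose and none fell in limma (11 higher and 0 lower at an unadjusted p under 0.05; median 0.60). Adgrf5, an adhesion receptor of capillaries, rose from 130.4 ± 39.3 to 265.7 ± 59.5 (change 0.96, adjusted p = 0.00171), Podxl, podocalyxin, from 43.7 ± 14.0 to 82.0 ± 13.3 (0.73, adjusted p = 0.00258), and Cd34 from 110.8 ± 26.9 to 172.9 ± 16.9 (0.60, adjusted p = 0.00436). Gpihbp1, which holds lipoprotein lipase on the capillary wall, rose from 116.5 ± 46.1 to 265.3 ± 83.4 (1.10, adjusted p = 0.00439). Cd93, a lectin-like receptor, had signals of 183, 116, 39.2, 57.5 and 54.7 on WT 1 to WT 5 and of 186 to 229 on the KO arrays (change 1.26, SE 0.28, adjusted p = 0.00535). WT 1 was again the highest WT array for Cd93, just below the KO range.

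The transcription factors and signalling genes of endothelium went both ways. Of 7 factors, 2 rose (28.6%), 1 fell (14.3%) and 4 did not pass. Sox17, an arterial factor, and Gata2 rose, with changes of 0.47 (adjusted p = 0.00619) and 0.30 (adjusted p = 0.0332), and Tal1, shared with blood cells, fell from 33.3 ± 1.22 to 26.2 ± 2.30 (change -0.22, adjusted p = 0.00803), with a median of 0.11 over the list. Gata2 lost its call without WT 2, WT 3, WT 4 or KO 8 (adjusted p = 0.0566 to 0.0773). Of 9 signalling genes, Ramp2, a partner of the adrenomedullin receptor, rose (0.45, adjusted p = 0.0159), Rasip1 fell (-0.24, adjusted p = 0.0465) and 7 did not pass (median 0.20), so 11.1% were called in each direction. Rasip1 lost its call in 14 of the 22 alternatives in which it was tested, among them quantile normalization (adjusted p = 0.0514), no filter (adjusted p = 0.0543) and the omission of any 1 array but WT 1 and KO 9 (adjusted p = 0.0585 to 0.0974).

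Genes of vessel subtypes went both ways. Of 13 tested, 5 rose, 1 fell and 7 did not pass (median 0.26). Vwf, von Willebrand factor of endothelium and platelets, rose from 185.6 ± 19.6 to 318.0 ± 28.1 (change 0.73, SE 0.09, adjusted p = 6.5e-05). Its signals were 154, 189, 194, 184 and 207 on WT 1 to WT 5, and WT 1 was the lowest of them, in contrast to Kdr, Cdh5 and Tek. Vcam1, Hey1 and Efnb2 rose by 0.43, 0.53 and 0.48, and epithelial cells can also express these genes. Gja4, the arterial connexin 37, fell from 526.8 ± 63.8 to 334.4 ± 66.3 (change -0.65, adjusted p = 0.00288). Of 4 lymphatic genes tested, Pdpn rose from 679 ± 319 to 1098 ± 80.8 (0.80, adjusted p = 0.0301) and Reln fell from 244.9 ± 36.1 to 81.6 ± 10.5 (-1.41, adjusted p = 2.4e-06), with a median of 0.03, and Pdpn also marks thymic epithelium. Pdpn lost its call without any 1 of WT 1, WT 2, WT 3, KO 7, KO 8, KO 9 and KO 10 (adjusted p = 0.0512 to 0.0743).

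**Figure D4:**
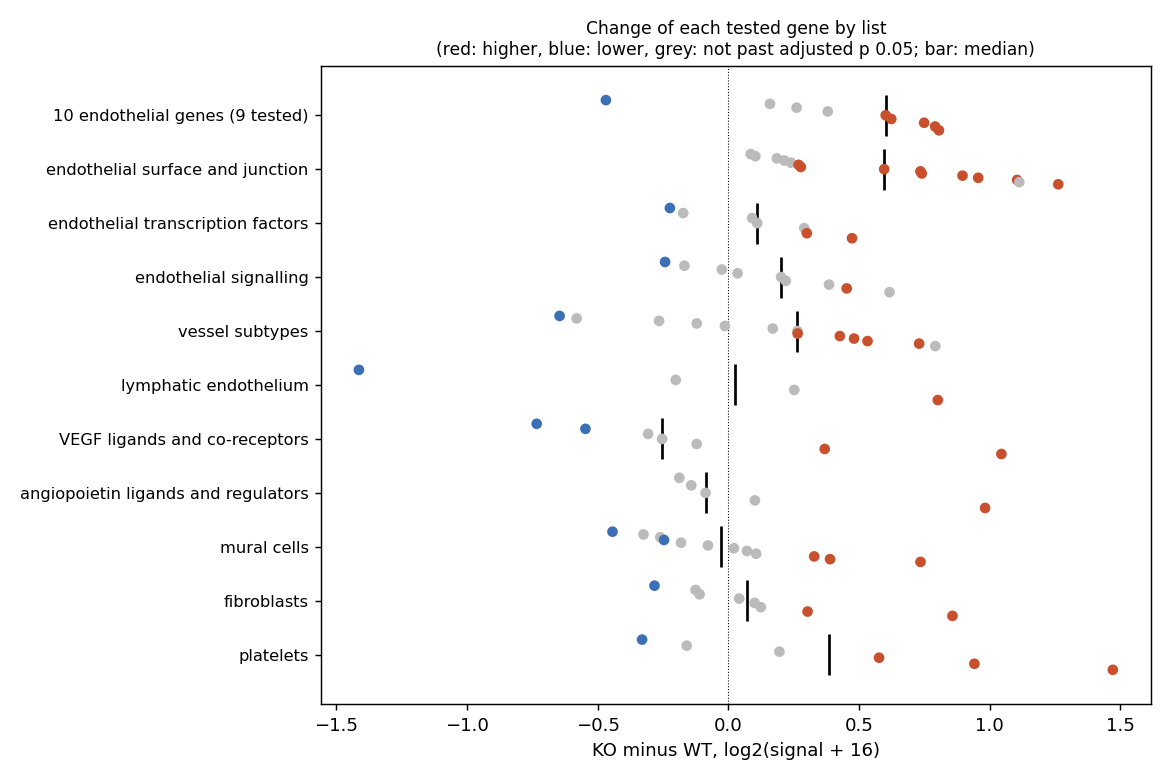
Change of each tested gene by list, KO minus WT on the log2(signal + 16) scale; red points rose and blue points fell at an adjusted p under 0.05, grey points did not pass, and the bar is the median of the list. The medians of the 9 endothelial genes and of the surface and junction genes both lie near 0.60, and those of mural cells and fibroblasts near 0.

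Markers of other cells that could travel with vessels were read on the same arrays. Of 12 genes of mural cells, which wrap vessels, 3 rose, 2 fell and 7 did not pass (median -0.03), with Notch3 at 97.6 ± 19.4 in WT and 171.0 ± 5.57 in KO cells (change 0.73, adjusted p = 2.6e-04) and Acta2 falling by 0.44 (adjusted p = 0.00176). Kcnj8 and Cspg4 had changes of 0.39 and -0.25 (adjusted p = 0.00724 and 0.0184). Another probe set of Cspg4 had a change of -0.02 (adjusted p = 0.80 in the fit over probe sets). Cspg4 lost its call with the mean of its probe sets (-0.14, adjusted p = 0.0846). The summed signal of the mural genes, of which Rgs5 gave 58.7% in WT, was 6909 to 8483 on the WT and 6114 to 8427 on the KO arrays. Of 8 fibroblast genes 2 rose, 1 fell and 5 did not pass (median 0.07), with Lum rising from 81.8 ± 4.88 to 161.6 ± 16.3, Dcn by 0.30 and Col5a1 falling by 0.28. Col5a1 lost its call in 11 of 24 alternatives, with no filter (adjusted p = 0.0537) and without any 1 array but WT 1 and KO 10 (adjusted p = 0.0622 to 0.104), and Dcn without WT 2, WT 3 or WT 4 (adjusted p = 0.0522 to 0.0636). The fibroblast sums were 2848 to 3412 and 3035 to 3768. Of 6 platelet genes 3 rose, 1 fell and 2 did not pass (median 0.39). The platelet chemokine gene Ppbp rose by 1.47 (adjusted p = 2.9e-04), Itgb3, an integrin of platelets and other cells, by 0.94 and Gp1bb by 0.58. Another probe set of Itgb3 rose by only 0.19 (adjusted p = 0.0135 in the fit over probe sets). Pf4, another platelet chemokine, fell by 0.33. The platelet sums were 598 to 688 in WT and 855 to 1183 in KO cells.

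Among leukocyte lists, 2 of 7 myeloid genes rose and 4 fell (median -0.33), with sums, carried to 71.4% by Lyz2 in WT, of 5759 to 6328 on the WT and 3976 to 4957 on the KO arrays. Fcgr3 had a change of 1.08, Csf1r of -0.52, Lyz2 of -0.43 and Adgre1 of -0.67. Of the B cell genes tested, Cd79b fell by 0.64 and Ms4a1 rose by 0.36, with sums of 271 to 320 and 211 to 234. Of 2 erythroid genes, none was called in limma (0 higher and 1 lower at an unadjusted p under 0.05), with sums of 142 to 199 and 144 to 202. No defining marker of these cells was at 0, since every deposited signal was above it. The part of such cells in the endothelial signals was not tested.

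The epithelial lists did not take the order of the endothelial genes in WT. In both, the summed signal was lowest on WT 1 and next lowest on WT 2. The mTEC sums were 69329, 73093, 79723, 77763 and 77226 on WT 1 to WT 5. The cortical sums were 5248, 6932, 7831, 8823 and 8870, and the cause of this order was not tested. Of 10 mTEC genes 2 rose (Tnfrsf11a by 0.76 and Krt5 by 0.71) and 2 fell (Aire by 0.45 and Krt14 by 0.42), with a median of 0.02 and sums of 69329 to 79723 in WT and 72714 to 77737 in KO cells, WT 1 being the lowest. Krt14 lost its call in 11 of 24 alternatives, among them the mean of its probe sets (adjusted p = 0.0518) and the omission of any 1 array but WT 1, WT 2 and KO 10 (adjusted p = 0.0623 to 0.108), and Aire without WT 3, WT 4 or WT 5 (adjusted p = 0.0613 to 0.068). Of 5 genes of cortical epithelium, Enpep and Ctsl rose by 0.82 and 0.89 and Ly75 fell by 0.49 (median 0.49), the call of Ly75 being lost without WT 4 or WT 5 (adjusted p = 0.0579 and 0.0604). Their sums, carried to 72.4% by Ctsl in WT, were 5248 to 8870 in WT and 11211 to 13895 in KO cells.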

How the data were processed

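The authors deposited 1 linear signal intensity per probe set and array, and MAS5 is the tool named per the submitters' processing notes. How the signals were scaled and background-corrected is not given in the sources used here. Precision is limited by having 5 arrays in each group. The 45101 probe sets were named through the platform annotation: 34945 had 1 gene symbol (control probe sets left out), 932 several and 9211 none, and 34741 were updated by Entrez identifier through a RefSeq table of GRCm38.p6. A probe set entered if it lay above its array's 40th percentile on at least 5 of 10 arrays, and each gene was tested on its kept probe set with the highest mean. Values were analysed as log2(signal + 16) with limma 3.58.1 in R 4.3.3 (lmFit, eBayes with trend and robust estimation). The procedure was tested on simulated data. No arrays were duplicates (highest correlation 0.996).

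The members and lists were chosen with earlier results of these data known. Text names the 10 genes, up to 4 called genes of each list by smallest adjusted p, and the 5 genes most like the set. Fezf2 was named as the deleted gene. Other genes (Pgf, Vegfb, Nrp2, Angpt2, Gja4, Mmrn2, Ptprb, Cldn5, Abcc9, Rgs5, Xist, Epcam and Ptprc) were chosen after their values were seen. Exact permutation tests were two-sided. The alternatives were other offsets, normalizations, filters, probe set rules, variance models and a stricter threshold, the pair WT 1 and KO 6 removed or fitted as a block, Xist signal as a block, and each array left out in turn.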

Additional observations from a re-analysis of the deposited data

Results flagged for a closer look

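An array was noted where its gap to the nearest array of its group exceeded 0.71 of the group's range (Dixon's 95% value for 5 samples). This happened in 4 of 58 groups checked, and chance gives about 1 in 20. Pecam1 read 38.12 on WT 1, against 15.8 to 20.9 on the other WT arrays. The summed signal of the vessel subtype genes was 5631 on WT 1, against 4988 to 5173 on the other WT arrays. The summed signal of the VEGF ligands and co-receptors was 1088 on WT 1, against 918 to 960 on the other WT arrays. Nrp2 gave 37.6% of this sum in WT and read 487 on WT 1, against 294 to 396 on the other WT arrays. The summed signal of the myeloid genes was 3976 on KO 10, against 4681 to 4957 on the other KO arrays.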

How the results depend on the processing

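Across 24 alternatives, Kdr, Egfl7, Pecam1 and Emcn kept their rise and Flt1 its fall past the threshold wherever they could be tested, and Cdh5 lost its call only at an adjusted p under 0.01 (0.0151). No endothelial gene of the set changed sign. The number that rose was 2 with a filter at the 60th percentile, which drops Pecam1, Emcn and Cdh5. It was also 2 with probe sets free of the suffixes _s_at, _x_at and _a_at, which drops Pecam1, Emcn and the probe sets of Egfl7. It was 5 to 7 with 1 array left out, 6 with WT 1 and KO 6 as a block, and 7 with both left out or with array weights. The median was 0.90 with an offset of 1, 0.30 with an offset of 64 and 0.32 with that filter or those probe sets. With that filter, 2 probe sets rose and 1 fell, and 1 of the other endothelial genes fell. At an adjusted p under 0.01, 4 probe sets rose and 1 fell, and 11 of the other endothelial genes rose. With array weights 27 of them rose, and 12 to 21 with 1 array left out; the cause was not tested. Over all genes, 1160 rose and 1313 fell at an adjusted p under 0.01, against 1838 and 2280 at 0.05. Across the 24 alternatives, 1160 to 2421 of all genes rose and 1313 to 3142 fell. The counts for the endothelial genes are to be read beside these, since calls over all genes changed with the setting too. The change of Nrp2 turned to 0.028 without WT 1 and KO 6. These arrays held its highest WT signal (487) and its lowest KO signal (290), and why they differed was not tested. The mural gene Abcc9 turned to -0.012 with probe sets free of those suffixes (0.33 in the main analysis), where another probe set is read. No paired analysis was possible because the WT and KO arrays share no replicate number.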

Other observations

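Mmrn2, which encodes an endothelial matrix protein, is in the list of surface and junction genes and, like the other genes named here, was chosen here after its values were seen. Its signals were 379, 303, 72.0, 70.7 and 66.2 on WT 1 to WT 5 and 299 to 343 on the KO arrays. The change of 1.11 did not pass (limma, SE 0.41, adjusted p = 0.062), and it passed without WT 1 (1.46, adjusted p = 0.00750) and without WT 2 (1.38, adjusted p = 0.0240). The other kept probe sets of Mmrn2 had changes of 0.89, 0.50 and 0.23. None of them passed in the limma fit over probe sets (adjusted p = 0.054, 0.12 and 0.19). Ptprb, a phosphatase that acts on Tek, read 187, 105, 78.2, 56.9 and 69.3 on WT 1 to WT 5 and 126 to 190 on the KO arrays (change 0.62, limma, adjusted p = 0.061), and its second probe set passed (0.80, adjusted p = 0.0219). Without WT 1 the first passed too (0.85, adjusted p = 0.00139), as it did once a block set WT 1 and KO 6 apart (adjusted p = 0.0265). The junction gene Cldn5 read 181, 95.8, 68.9, 82.6 and 72.8 on WT 1 to WT 5 and 326, 199, 224, 152 and 106 on KO 6 to KO 10 (change 0.90, limma, adjusted p = 0.0278). Cldn5 lost its call without any 1 array but WT 1, KO 9 and KO 10 (adjusted p = 0.0512 to 0.0659).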
